A study of Mus musculus with 4 samples.

Results

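The AMPA and kainate receptor genes are the 9 mouse genes Gria1 to Gria4 and Grik1 to Grik5, and DNA methylation was followed along each of them. They were taken as every region of the deposited methylation table that carries the name of 1 of these genes, together with regions on the same chromosome within 3000 bp of the outermost region so named. This gave 856 of 849172 regions, 820 by name and 36 by position. AMPA receptor genes held 281 of them and kainate receptor genes 575. Hippocampal CA1 tissue of C57B6/J mice aged 117 days had been bisulfite sequenced over the whole genome, in 4 libraries. There were 2 with the label Tet2+f_Camk2aCre and 2 with the label Tet2+f. The first pair, called the Cre libraries here, is described by the submitters as Tet2 haploinsufficient in glutamatergic cells. The second pair, called the control libraries, carries the Tet2+f allele without Cre. Camk2a-Cre acts in excitatory forebrain neurons. Methylation levels do not show how far Tet2 itself was reduced. Cre without the Tet2+f allele was not among the samples, so effects of Cre and of reduced Tet2 cannot be told apart. The labels do not say whether replicates came from separate mice, so p-values rest on the spread among 4 libraries, and that spread may be technical only.

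AMPA receptors are tetramers of the proteins GluA1 to GluA4, encoded by Gria1 to Gria4, and carry most fast excitatory transmission at CA1 synapses. Kainate receptors are tetramers of GluK1 to GluK5, encoded by Grik1 to Grik5, and tune transmitter release and the excitability of principal cells and interneurons. Methylation of CpG sites is usually low at the CpG-rich start of a gene and high along its body, and TET enzymes oxidize 5-methylcytosine to 5-hydroxymethylcytosine. Bisulfite sequencing reads both forms as methylated, so a level given here is their sum.

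The starts of the receptor genes differ in how many CpG sites they hold, and 4 of them are shown to let a reader see the sequence under the low levels described further on. Each sequence runs from 250 bases before to 50 bases after the RefSeq start, 5′ to 3′ on the gene's strand, in GRCm38.p6 (mm10), with every CpG in capitals. Their positions are chr3:80802786-80803085 (minus strand) for Gria2, chr9:4796185-4796484 (minus strand) for Gria4, chr4:125490446-125490745 (plus strand) for Grik3 and chr7:25072320-25072619 (minus strand) for Grik5.
Gria2: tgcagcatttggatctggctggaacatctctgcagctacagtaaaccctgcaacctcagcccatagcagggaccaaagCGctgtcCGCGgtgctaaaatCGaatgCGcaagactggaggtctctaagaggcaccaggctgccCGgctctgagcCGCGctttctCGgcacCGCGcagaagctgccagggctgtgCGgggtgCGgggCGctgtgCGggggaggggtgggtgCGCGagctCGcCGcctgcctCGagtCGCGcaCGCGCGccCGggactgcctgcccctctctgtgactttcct
Gria4: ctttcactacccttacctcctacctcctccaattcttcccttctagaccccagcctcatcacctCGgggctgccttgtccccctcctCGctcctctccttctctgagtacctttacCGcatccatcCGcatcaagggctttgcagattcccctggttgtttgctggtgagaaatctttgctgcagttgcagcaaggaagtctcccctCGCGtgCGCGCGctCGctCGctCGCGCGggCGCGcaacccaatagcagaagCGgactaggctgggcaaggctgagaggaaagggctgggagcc
Grik3: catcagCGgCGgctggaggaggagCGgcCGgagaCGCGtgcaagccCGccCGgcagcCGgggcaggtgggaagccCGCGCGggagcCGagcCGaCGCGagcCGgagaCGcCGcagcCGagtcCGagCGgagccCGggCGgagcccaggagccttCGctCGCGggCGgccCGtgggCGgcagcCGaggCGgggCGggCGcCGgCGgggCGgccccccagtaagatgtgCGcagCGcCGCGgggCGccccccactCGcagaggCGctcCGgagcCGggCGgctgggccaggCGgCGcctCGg
Grik5: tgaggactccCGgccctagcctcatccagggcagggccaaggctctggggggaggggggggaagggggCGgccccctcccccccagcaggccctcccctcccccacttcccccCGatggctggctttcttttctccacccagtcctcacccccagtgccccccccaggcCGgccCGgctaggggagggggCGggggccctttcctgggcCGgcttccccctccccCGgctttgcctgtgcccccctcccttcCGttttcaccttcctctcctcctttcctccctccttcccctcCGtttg
The Grik3 sequence held 50 CpGs, more than 99.1% of the 32851 promoter sequences of RefSeq, whose median was 7. Gria2 held 26, Gria4 held 17 and Grik5 held 10. Among the members not printed, Grik4 held 42 CpGs and Grik2 held 26, and Gria1, Gria3 and Grik1 had no entry. Observed over expected CpG ranged from 0.277 for Grik5 to 1.16 for Grik4. The letters GGGCGG, on either strand, occurred 7 times in Grik3 and 2 times each in Grik4 and Grik5, and in 35.7% of all promoter sequences. The NRF1 motif, searched on both strands with 1 free position, occurred in Gria2 and in 4.60% of all. Neither TGACGTCA, in 1.79% of all, nor CACGTG, in 7.15%, occurred in the 6 members with an entry. The regions over these windows were at 0.350% to 26.0% methylation for Gria2, 16.5% for Gria4, 0.0833% to 2.14% for Grik3 and 0.323% to 7.09% for Grik5.

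The deposited values are percent methylation per region, with no counts or coverage, so the depth behind each is unknown. The 4 library means over all regions lay between 75.7% and 76.1%. Where regions lay whole inside a RefSeq promoter sequence, 84.1% of 1906 held exactly 25 CpGs, so short regions are those dense in CpG. Promoter levels of marker genes were set beside the CA1 label. They do not single out CA1. The interneuron genes Gad1 and Gad2 had means of 13.9% and 19.3% over the 4 libraries. Of the CA1 genes, Wfs1 lay above them at 23.8% and Pou3f1 below them at 10.3%. The excitatory gene Slc17a7 lay above them at 21.8%. Promoters of the neuronal genes Slc17a7, Wfs1, Pou3f1, Gad1 and Gad2 lay between 9.65% and 24.8% in the 4 libraries, while those of the glial genes Aqp4, Mog, Cx3cr1 and Csf1r lay between 72.8% and 86.6%. The division was not complete, since the neuronal genes Neurod6 and Rbfox3 lay between 44.9% and 68.6%, the astrocyte genes Gfap and Aldh1l1 between 55.7% and 71.5%, and the oligodendrocyte gene Mbp between 33.6% and 36.5%. The P2ry12 promoter had no value. The promoter of Camk2a, whose sequence drives Cre, was at 30.5% and 30.4% in the controls and at 69.7% and 66.6% in the Cre libraries. Its bearing on the receptor genes was not tested. Since tissue was sequenced, a change in a few cells and a smaller change in many cannot be told apart.

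Each of the 9 genes carried a stretch of low methylation at or near its start and was highly methylated along most of its body. Over the 856 regions and 67 more Grik1 regions described below, the mean level of the 4 libraries was 7.92% in the first 2000 bp after the gene start (26 regions). It was 46.1% from there to 10000 bp (34 regions), 73.8% from there to 50000 bp (125 regions) and 79.2% beyond (724 regions). Single genes departed from this order of pooled means. Grik5 was at 50.6% in the first bin, 36.9% in the next, 75.7% up to 50000 bp and 50.9% beyond, Grik2 at 16.6% and then 12.7% in the first pair of bins, and Grik4 at 73.8% and then 66.0% in the bins on either side of 10000 bp. Of the 856 regions, 41 (4.79%) had a mean under 20%, against 6.57% of all regions.

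Adjoining regions under 20% formed 14 runs. The run at the Gria2 start was the longest, at chr3:80798321-80803006, with 5 regions over 4686 bp. The Grik3 run, chr4:125489740-125492503, held the most regions, 9 over 2764 bp, each between 0.0833% and 4.65%. At Gria1 the low stretch was a single region of 1247 bp, chr11:57011183-57012429. Those of Gria3 (chrX:41400758-41402306, 1549 bp), Gria4 (chr9:4794438-4797673, 3236 bp) and Grik4 (chr9:42943383-42944922, 1540 bp) lay at the start in the same way. Grik2 had a pair of runs, chr10:49787686-49788854 over the start of the promoter table and chr10:49782521-49783540 some 5214 bp further into the gene. The Grik5 run, chr7:25071563-25072968, lay at the start of the promoter table and 2726 bp inside the outermost RefSeq start.

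Low runs also occurred away from starts, in Grik4 and Grik5. Inside Grik4, 46733 bp from the gene start, chr9:42896887-42898267 averaged 3.91% and 3.09% in the controls and 4.88% and 4.02% in the Cre libraries. Its middle region of 309 bp was at 0% in all 4 libraries. Near the 3′ end of Grik4, chr9:42519907-42520920 was at 10.2% and 14.4% in the controls and 15.1% and 27.1% in the Cre libraries, so that both Cre libraries were above both controls and far from each other. At the 3′ end of Grik5, the 5 regions of chr7:25008733-25010731 averaged 3.30% and 4.89% in the controls and 6.81% and 7.45% in the Cre libraries.

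The deposited name Grik1 covers only chr16:87894458-88056629, the 3′ part of the RefSeq gene. The start of Grik1 and 67 regions of its extent therefore fall outside the 856, and gene body and promoter values of every member were taken over the RefSeq extent instead. Over the start of Grik1, chr16:88289486-88292664 held 3 regions that averaged 7.34% and 6.33% in the controls and 6.72% and 5.43% in the Cre libraries.

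**Figure D1:**
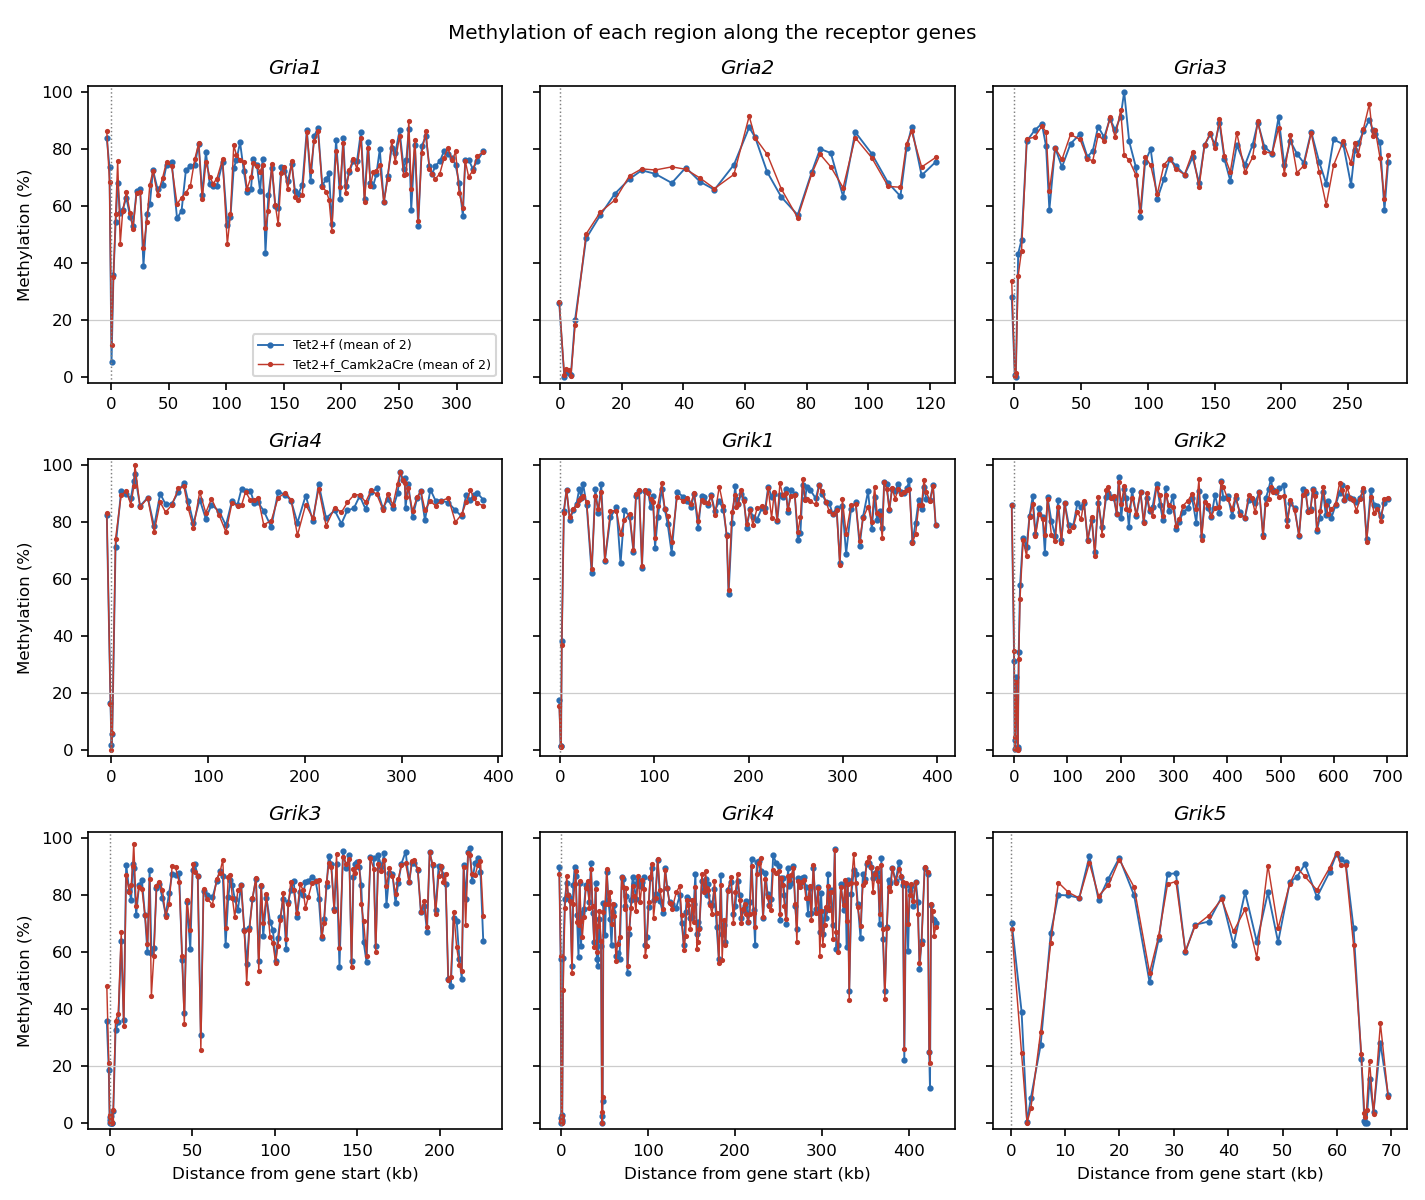
Methylation (%) of each region against the distance of its centre from the gene start (kb), as the mean of 2 Tet2+f (blue) and 2 Tet2+f_Camk2aCre (red) libraries, with a grey line at 20%. Each gene dips at or near its start, Grik4 dips again 46733 bp inside and at its 3′ end, Grik5 at its 3′ end, and the lines of the groups run close together.

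The 9 gene bodies differed in level by more than their spread between libraries, except for 1 pair of neighbours. A gene body level is the mean over all regions overlapping the gene. Gria4 was highest at 83.7% ± 0.156 (SD, 4 libraries), followed by Grik1 at 82.4% ± 0.0932, Grik2 at 80.6% ± 0.303 and Gria3 at 75.4% ± 0.580. Grik4 at 73.7% ± 0.373 and Grik3 at 73.2% ± 0.318 overlapped between libraries and have no order. Gria1 at 68.9% ± 0.603, Grik5 at 63.9% ± 0.344 and Gria2 at 60.5% ± 0.421 were lowest. The ranges of the 4 libraries did not overlap between any other neighbours in this order. These means include low runs. Of the regions taken by name and position, 14.7% of Gria2, 18.2% of Grik5 and 0.935% of Gria1 lay under 20%. Their median regions were close, at 70.4%, 70.6% and 71.2%. Beyond 50000 bp from the start, Gria2 was at 74.2% and Gria1 at 71.4%. The order is thus that of the means, not of the levels along most of each gene. Among 21788 protein-coding genes the median body was at 71.7%, with quartiles of 58.4% and 79.7%. Gria4 exceeded 89.0% of them and Gria2 27.9%. The kind of region differed as well: 87.8% of the Gria4 regions had a level of 80% or more, against 13.1% for Gria1, where 86.0% lay between 20% and 80%.

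Promoter levels had another order. A promoter level is the mean over regions that touch the window from 2000 bp before the outermost RefSeq start to 500 bp after it. Grik2 at 59.5% ± 1.14 and Gria2 at 56.1% ± 1.63 were highest, and Gria1 followed at 39.5% ± 0.695. Grik1 at 33.8% ± 1.54 and Gria4 at 33.4% ± 0.426 overlapped, as did Gria3 at 15.7% ± 2.03 and Grik5 at 14.3% ± 0.530, with Grik4 between the pairs at 29.8% ± 0.901. Grik3 was lowest at 9.84% ± 1.51, above only 6.29% of 19583 protein-coding promoters, whose median was 34.8%. The choice of start, of window and of weighting moves these values, so the order holds for this definition only. Weighted by overlap with the window, Grik5 was at 40.6% and 38.8% in the controls and 37.9% and 38.9% in the Cre libraries. Grik4 was then at 59.0% and 56.7%, and at 58.6% and 56.5%. Within 1000 bp of the start, Gria4 was at 8.48% and 7.51%, and at 8.24% and 6.73%. There Grik1 was at 10.5% and 8.54%, and at 9.07% and 7.75%. At the start of the promoter table, 1392 bp inside the outermost one for Gria2 and 1407 bp inside for Grik2, the Gria2 promoter was at 9.55% and 8.67% in the controls and 10.5% and 9.20% in the Cre libraries. The Grik2 promoter was then at 11.5% and 12% in the controls and 13.6% and 12.8% in the Cre libraries. The window at the outermost Grik5 start also covers the start of Zfp574, a zinc finger gene on chromosome 7, so its level is not that of Grik5 alone.

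**Figure D2:**
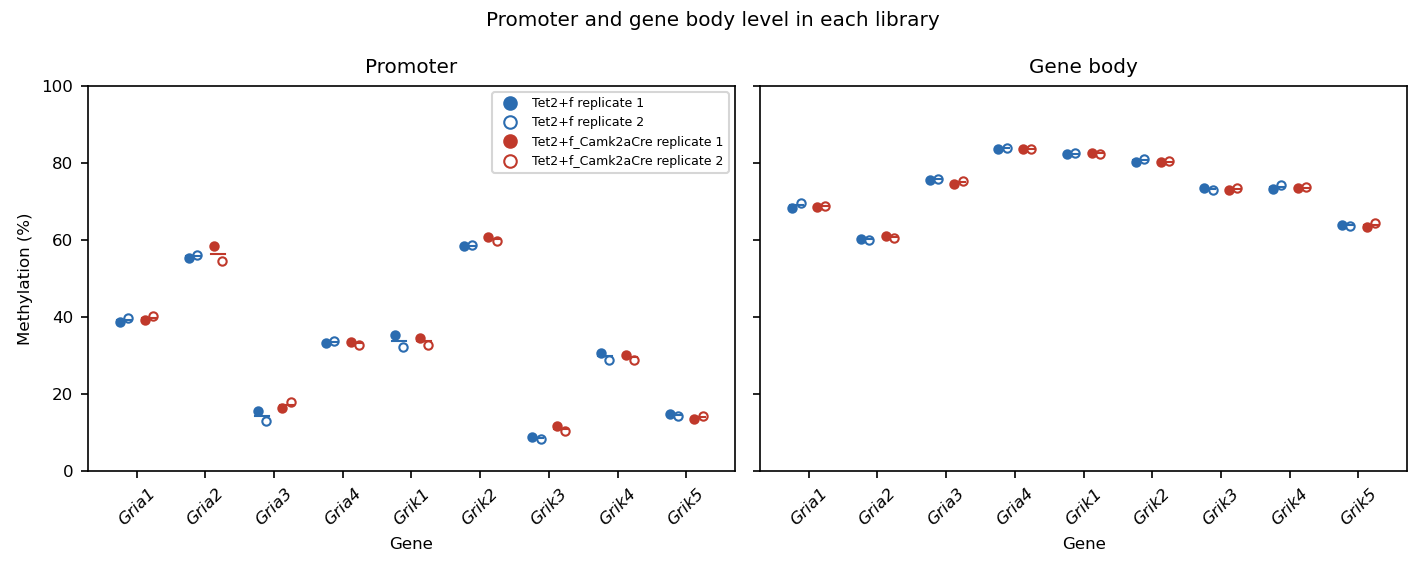
Promoter and gene body methylation (%) of the 9 genes, with 1 point per library (blue Tet2+f, red Tet2+f_Camk2aCre, filled replicate 1, open replicate 2) and a bar at each group mean. Gene bodies lie between 60.5% (Gria2) and 83.7% (Gria4), and the libraries of a gene lie closer to each other than most genes do.

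The comparison of the Cre with the control libraries addresses whether reduced Tet2 in excitatory neurons was accompanied by a methylation change at these genes. No member region passed the test. In limma on the logit of the level, with Benjamini-Hochberg adjustment over all 849014 regions with a value in every library, 0 of the 856 regions had an adjusted p under 0.05, against 0% of all regions, and the smallest adjusted p was 0.937. An unadjusted p under 0.05 was found for 27 regions (3.15%), 18 higher and 9 lower in the Cre libraries, against 4.60% of all. Both Cre libraries lay above both controls in 141 regions and below both in 156. These 297 regions are 34.7% of the members, against 32.8% of all regions. Such a separation was therefore about as frequent as elsewhere.

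The size of the differences was likewise close to the background. The median difference between groups, without sign, was 2.0 points over the members and 1.74 over all regions, and the median gap between replicates of a group was 2.90 and 2.73 points. A difference of group means is smaller than a gap between single libraries by averaging alone. The Cre libraries were higher in 393 member regions, lower in 462 and equal in 1, with a median difference of -0.253 points against -0.0214 over all regions. A difference of 10 points or more was found in 9 member regions (1.05%), against 0.875% of all. Over all member regions the control libraries averaged 74.2% and 74.7% and the Cre libraries 74.2% and 74.4%. The exact two-sided permutation test of these means gave p = 0.667, and 2 libraries against 2 cannot give less than 0.333.

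Mean differences were below 1 point at low, middle and high levels. In the 41 member regions under 20%, the means were 3.48% and 3.30% in the controls and 3.86% and 4.45% in the Cre libraries, a difference of 0.765 points, against 0.130 over all such regions. In 384 regions between 20% and 80% the difference was -0.195 points, and in 431 regions of 80% or more it was -0.245 points. By gene, the share with an unadjusted p under 0.05 in limma ran from 0.935% (Gria1, 1 of 107) to 11.4% (Grik5, 5 of 44). This share was 4.60% over all regions and 11.1% over all regions under 20%. Of the Grik5 regions, 18.2% lay under 20%. Whether Grik5 exceeded regions of like level was not tested.

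**Figure D3:**
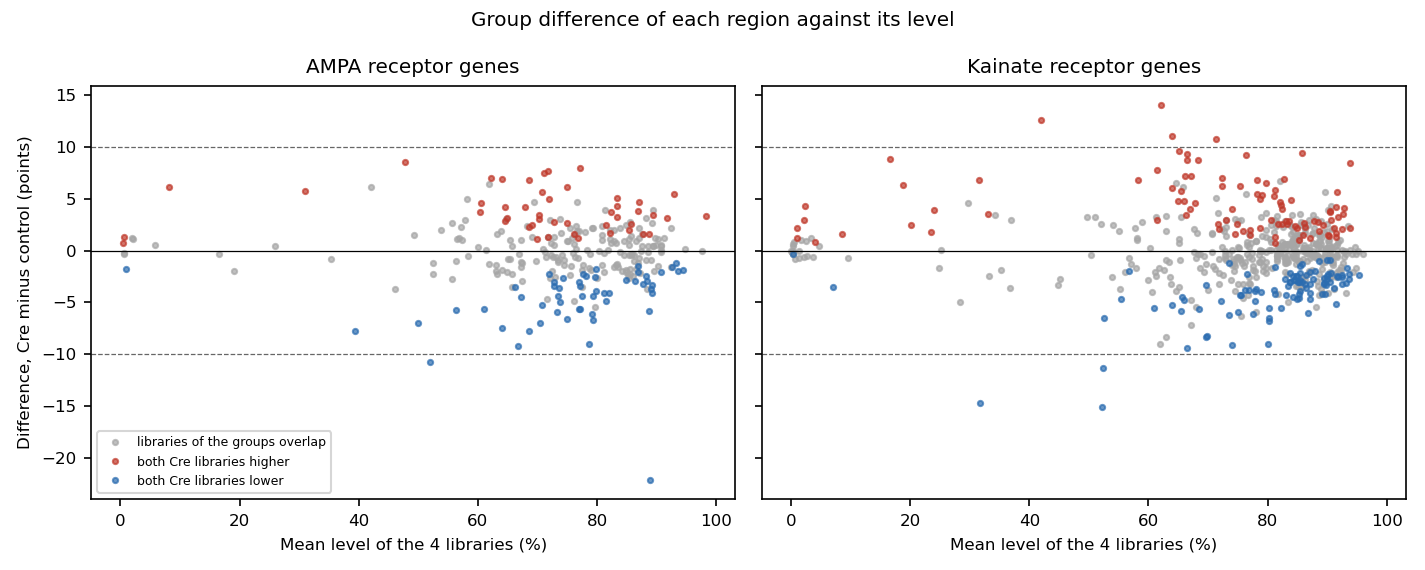
Difference between groups (Cre minus control, percentage points) against mean level (%) for each of the 281 AMPA and 575 kainate receptor gene regions, coloured where both Cre libraries lay above (red) or below (blue) both controls. Dashed lines mark 10 points, which 9 regions reached.

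Gene bodies gave the same picture. Of the 9 bodies 0 passed the test and 0 had an unadjusted p under 0.05, against 0% and 5.60% of 49601 gene bodies in limma. Differences lay between -0.846 points for Gria3 and 0.551 points for Gria2. The 95% interval of limma on the percent scale was -3.02 to 1.33 points for Gria3 and -1.59 to 2.70 for Gria2. Of the 9 promoters 0 passed and 1, Grik3, had an unadjusted p under 0.05, against 0% and 5.12% of 21915 promoters. Promoter differences ran from -0.619 points (Grik5) to 2.79 points (Gria3).

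Gria1 encodes GluA1, the subunit that is inserted into synapses during potentiation. Its body was at 68.3% and 69.7% in the controls and 68.6% and 68.9% in the Cre libraries. The promoter was at 38.7% and 39.8%, and at 39.2% and 40.3%, so the groups overlapped in both. Within that promoter, the region over the gene start, chr11:57011183-57012429, was at 4.65% and 5.49% in the controls and at 10.3% and 12.3% in the Cre libraries. Both Cre libraries were thus above both controls here, by 6.20 points on average, with an adjusted p of 0.937 in limma. With each library left out in turn, the difference was 5.22 to 7.18 points. The region just upstream, chr11:57008933-57011182, was at 72.7% and 74.2% in the controls and 68.2% and 68.3% in the Cre libraries, which is the opposite direction. Further in, chr11:57018178-57020592 was at 63.0% and 51.8% in the controls and 44.9% and 48.4% in the Cre libraries, where the controls were also far apart and the difference ranged from -16.4 to -5.12 points with each library left out. The region with the smallest p among those lower was chr11:57199822-57201598, at 70.9% and 72.0% against 65.5% and 58.9%.

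Gria2 encodes GluA2, the subunit whose RNA editing makes AMPA receptors impermeable to calcium. The gene body was at 60.4% and 60% in the controls and 61.1% and 60.5% in the Cre libraries. At the promoter the levels were 55.4% and 56.1%, and at 58.4% and 54.7%, so that the Cre pair enclosed the controls. The CpG-rich start printed above lies largely in the region chr3:80802817-80803006, which was at 0% in both controls and at 0.40% and 1.0% in the Cre libraries. That was the smallest p of the gene (limma, 0.0331 unadjusted, 0.937 adjusted), for a difference of 0.700 points near the floor of the scale. Among regions lower in the Cre libraries, the smallest p (limma, 0.256) belonged to chr3:80714182-80718604, at 80.2% and 76.8% against 77.6% and 69.7%, where the groups overlapped.

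Gria3 encodes GluA3 and lies on the X chromosome, where levels also depend on sex, which the labels do not give. Over the body the levels were 75.7% and 75.9% in the controls and 74.6% and 75.3% in the Cre libraries. Both Cre values were lower, and the limma interval given above includes 0. The Gria3 promoter was at 15.7% and 13%, and at 16.4% and 17.9%, a difference of 2.79 points with an interval of -0.812 to 6.39. It ranged from 1.46 to 4.12 points with each library left out and was 4.44 points weighted by overlap. Its start region, chrX:41400758-41401576, had 0.253% and 1.10%, and at 0.323% and 0.602%. The largest difference of any member region was at chrX:41482666-41483477, 82252 bp into the gene, at 100% in both controls and at 59.3% and 96.4% in the Cre libraries. This difference of -22.2 points rested on Cre replicate 1, and without that library it was -3.57 points. At chrX:41664868-41668538 the controls were at 88.9% and 91.5% and the Cre libraries at 96.8% and 94.5%.

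Gria4 encodes GluA4, which in the hippocampus is found mainly early in life and in interneurons. Its body, the most methylated of the 9, was at 83.7% and 83.9% in the controls and at 83.6% in both Cre libraries. Its promoter was at 33.3% and 33.9%, and at 33.5% and 32.9%, with overlap. Among regions higher in the Cre libraries, the smallest p was at chr9:4771451-4771865, with 98.5% and 94.8% in the controls and 100% in both Cre libraries (limma, adjusted p = 0.937). At chr9:4659775-4663270 the controls were at 92.2% and 91.1% and the Cre libraries at 82.8% and 88.8%. The lowest region of the gene, chr9:4795684-4796091 just after the start, was at 0.250% and 3.33%, and at 0% in both Cre libraries.

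Grik1 encodes GluK1, which in the hippocampus is prominent in interneurons. Its gene body stood at 82.3% and 82.5% in the controls and 82.5% and 82.4% in the Cre libraries, the smallest spread of the 9. Its promoter stood at 35.5% and 32.2%, and at 34.7% and 32.9%, so that the Cre pair lay within the controls. The 3 Grik1 regions that stood out lie in the part without the deposited name. At chr16:88225050-88228091 the controls were at 64.1% and 66.8% and the Cre libraries at 79.1% and 72.4%, a difference of 10.3 points that ranged from 6.90 to 13.6 with each library left out. At chr16:88120139-88123855 the levels were 87.8% and 86.8% against 92.1% and 92.7%. The opposite direction was seen at chr16:88064744-88068346, with 89.8% and 87.8% against 80.6% and 82.1%.

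Grik2 encodes GluK2, a main subunit of hippocampal kainate receptors. Its body was at 80.3% and 81.0% in the controls and 80.4% and 80.5% in the Cre libraries. Its promoter was at 58.4% and 58.7%, and at 60.9% and 59.8%, both Cre libraries being higher by 1.79 points on average, with a limma interval of -0.733 to 4.32. The lowest region, chr10:49788612-49788854, was at 0% and 0.667%, and at 0.510% and 0%, with overlap. The region over the outermost start, chr10:49788855-49790738, was at 30.6% and 31.8% against 35.0% and 34.6%, with both Cre libraries higher by 3.59 points on average (limma, adjusted p = 0.937). In the body, chr10:49395302-49400353 was at 88.9% and 88.0% against 92.9% and 91.7%. In the other direction, chr10:49198531-49203708 was at 87.8% and 86.9% against 83.0% and 82.3%.

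Grik3 encodes GluK3, a subunit of low sensitivity to glutamate. Over the Grik3 body the levels were 73.5% and 73.1% in the controls and 72.9% and 73.5% in the Cre libraries. For the promoter they were 8.92% and 8.36%, and at 11.7% and 10.4%. This difference of 2.41 points had the smallest p of the 9 promoters in limma on the logit, 0.0208 unadjusted and 0.956 adjusted. Its interval, from the separate fit on the percent scale, was -0.218 to 5.04 and includes 0. The difference was carried mostly by 1 of 7 regions, chr4:125487327-125489122 upstream of the start. That region was at 34.0% and 37.5% in the controls and 50.8% and 45.8% in the Cre libraries. There the difference was 12.6 points (limma, adjusted p = 0.937), and 10.1 to 15.0 points with each library left out. With regions weighted by their overlap with the window, the promoter difference was 5.25 points, and within 1000 bp of the start it was 0.738 points. The 9 regions of the low run averaged 1.5% and 0.961%, and 1.56% and 1.74%. Inside the gene, chr4:125514740-125515837 was at 60% and 59.5% in the controls and at 37.2% and 52.2% in the Cre libraries, which were also far apart. With each library left out, that difference ranged from -22.6 to -7.60 points. At chr4:125699811-125701539 the levels were 70.1% and 72.0% against 60.5% and 62.9%. At chr4:125504364-125504816, where the annotation also places Ftl2-ps and Mir692-2, they were 93.7% and 85.5% against 97.6% and 98.6%.

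Grik4 encodes GluK4, a high-affinity subunit that needs a partner from GluK1 to GluK3 to form a channel. Its body was at 73.4% and 74.3% in the controls and 73.5% and 73.7% in the Cre libraries. The Grik4 promoter was at 30.8% and 29.0%, and at 30.2% and 29.0%, with overlap. The gene held 4 of the 9 member regions with a difference of 10 points or more. That is 1.88% of its 213 regions, against 0.875% of all regions. These 4 are among the 112 Grik4 regions with a level between 20% and 80%. At such levels, 2.22% of all regions differed by 10 points or more. The count to set beside that share is 4 of 112, not the 1.88%. Whether it exceeds that share was not tested. Beside the low run at its start, chr9:42941874-42943382 was at 59.7% and 56.5% in the controls and 42.8% and 50.6% in the Cre libraries. The other 3 were higher in the Cre libraries. At chr9:42924226-42925735 the levels were 53.7% and 63.2% against 70% and 69.1%. At chr9:42901875-42903319 they were 49.8% and 60.4% against 75% and 63.4%, and at chr9:42893435-42895497 they were 62.4% and 69.4% against 77.3% and 76.2%. With each library left out, these 4 differences ranged from -15.2 to -7.44, from 6.38 to 15.8, from 8.28 to 19.9 and from 7.32 to 14.4 points, so that each was under 10 points without 1 of the libraries. The regions that adjoin the internal low run had overlapping groups and differences of opposite sign, -3.19 and 1.86 points. The smallest p in each direction was at chr9:42607002-42609235, with 89.8% and 87.8% against 93.4% and 95.5%, and at chr9:42930319-42931704, with 84.2% and 82.8% against 77.5% and 76.5%.

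Grik5 encodes GluK5, the other high-affinity subunit, which joins GluK2 in many neurons. The Grik5 body was at 63.9% and 63.8% in the controls and 63.5% and 64.4% in the Cre libraries. The window at the outermost start, shared with Zfp574, was at 15.0% and 14.3%, and at 13.7% and 14.4%. At the start of the promoter table, whose sequence is printed above, the promoter was at 17.2% and 15.2% in the controls and at 9.20% and 10.7% in the Cre libraries. This window was added after the data had been seen. The difference of -6.22 points had an adjusted p of 0.966 in limma over 16834 promoters. Most of it came from chr7:25072969-25074422, just upstream, at 41.8% and 36.6% in the controls and 22.0% and 27.0% in the Cre libraries. That region differed by -14.7 points (limma, adjusted p = 0.937), and by -17.3 to -12.2 points with each library left out. On its other side, chr7:25071563-25072409 was at 9.85% and 7.89% against 5.64% and 4.98%. The region between, chr7:25072410-25072968, was at 0% and 1.01%, and at 0% and 0.278%, with the groups overlapping.

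Within the low run chr7:25008733-25010731 at the 3′ end of Grik5, 3 neighbouring regions went in the other direction. The smallest unadjusted p of any member region (limma, 0.000441, adjusted 0.937) was at chr7:25010389-25010595, at 0% in both controls and at 1.98% and 2.33% in the Cre libraries. Next to it, chr7:25010185-25010381 was at 0% and 0.340% in the controls and 7.14% and 1.90% in the Cre libraries. Further out, chr7:25009266-25010180 was at 14.1% and 17.1% against 20% and 23.9%. These 3 regions were each higher in both Cre libraries. The first and second lie near the floor of the scale, where the logit gives weight to small differences.

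**Figure D4:**
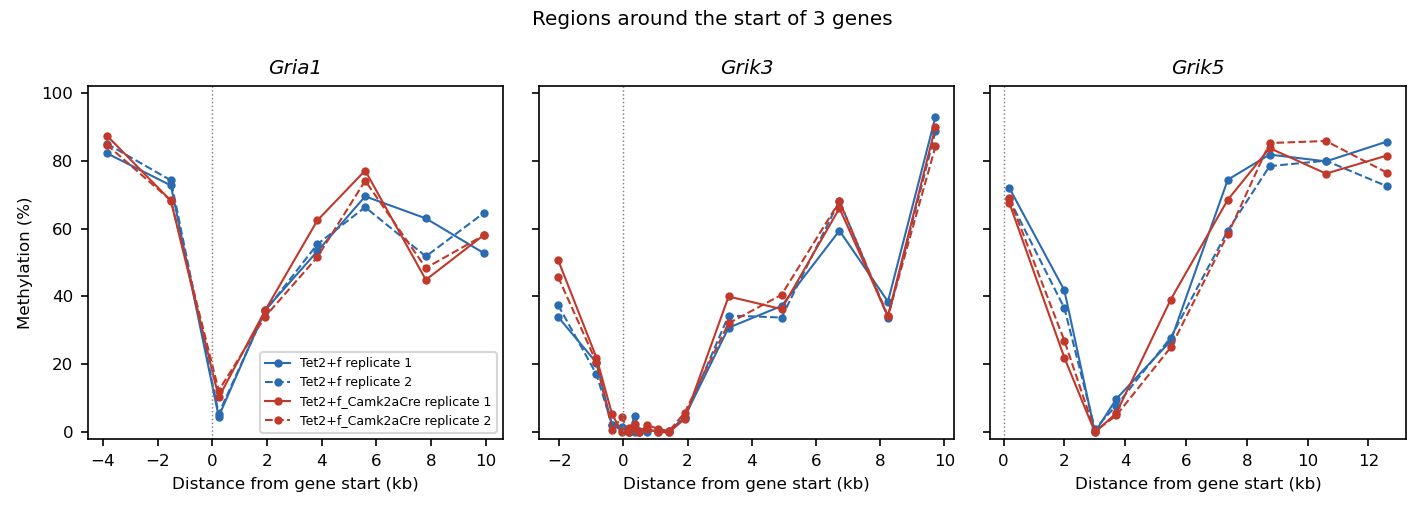
Methylation (%) of each region in each library against the distance of its centre from the gene start (kb) for Gria1, Grik3 and Grik5, in blue for Tet2+f and red for Tet2+f_Camk2aCre, solid for replicate 1 and dashed for replicate 2. Both Cre libraries lie above the controls in the Gria1 start region and upstream of Grik3, and below them 1998 bp into Grik5.

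The regions next to the low runs, where the level turns from low to high, were examined together. These 24 adjoining regions had a median level of 34.9%. Both Cre libraries lay above both controls in 6 and below both in 5, together 45.8%, against 32.8% of all regions. These edges were chosen after the levels had been seen, and this share was not tested. Their median difference without sign was 2.46 points and their median replicate gap 3.70 points. A difference of 10 points or more was found in 2 of them, at Grik4 and Grik5, both lower in the Cre libraries. At the edges of the Gria3 run, chrX:41396951-41400757 was at 31.1% and 24.9% against 32.5% and 35.1%, while chrX:41402307-41405078 was at 43.4% and 43.1% against 29.8% and 41.1%.

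Genes of proteins that assemble with these receptors were described from a list of 19. It holds the transmembrane regulatory proteins of the Cacng family, the cornichons Cnih2 and Cnih3, the Shisa and Neto proteins, and assembly factors such as Frrs1l and Porcn. None passed the test in either direction, over promoters or over bodies. Of 18 promoters with a value, 9 were higher and 9 lower in the Cre libraries, with a median difference of -0.0874 points, against 50.8% higher and a median of 0.0272 over all promoters. Of 19 bodies, 14 were higher, with a median of 0.346 points, against 50.1% and 0.00291 over all bodies. An unadjusted p under 0.05 was found for 1 of the 18 promoters, against 5.12% of all promoters. It was Cacng5, at 37.0% and 38.4% against 43.3% and 41.0% (limma, adjusted p = 0.956). Cacng8, which encodes the main hippocampal member of its family, had a promoter at 49.7% and 51.0% against 54.5% and 53.8%. Among promoters lower in the Cre libraries, Cacng4 was at 19.4% and 8.54% against 7.92% and 7.29%, with 1 control library apart from the other 3. Cnih3 was at 89.1% and 90.4% against 87.8% and 89.1%. Over bodies, Shisa8 was at 27.0% and 28.7% against 30.9% and 29.1%, and Cacng5 at 71.9% and 75.8% against 76.2% and 76.5%. Shisa7 was at 35.7% and 35.6% against 34.5% and 34.2%, and Frrs1l at 68.6% and 68.0% against 67.3% and 67.7%.

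A further list of 16 genes was drawn up to cover anchoring, trafficking and editing of the receptors and delta receptors such as Grid1. A role of each gene at AMPA or kainate receptors was not tested. None of the 16 genes passed the test in either direction here. Of 16 promoters, 11 were higher in the Cre libraries, with a median difference of 0.305 points, against 50.8% and 0.0272 over all promoters. Of 16 bodies, 12 were higher, with a median of 0.507 points, against 50.1% and 0.00291 over all bodies. These counts were not tested. The promoter of Dlg4, which encodes the scaffold PSD-95, was at 21.3% and 20.2% in the controls and 24.5% and 24% in the Cre libraries. It was the 1 promoter of 16 with an unadjusted p under 0.05, against 5.12% of all promoters. Its difference was 3.54 points, with an adjusted p of 0.956 in limma. Adarb1, the enzyme that edits Gria2 RNA, was at 12.6% and 13.2% against 15.2% and 13.7%. Lower in the Cre libraries were Grip2, a scaffold that binds GluA2, at 13.2% and 17.0% against 13.2% and 12%, and Klhl17 at 5.37% and 2.84% against 3.13% and 3.18%. Over bodies, Klhl17, an adaptor that binds GluK2, was at 50.9% and 51.5% against 53.4% and 53.1%, and Dlg4 at 52.5% and 51.5% against 54.2% and 53.5%. Grasp was at 51.8% and 53.3% against 49.1% and 51.5%, and Grid1 at 78.7% and 79.5% against 78.7% and 78.5%.

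**Figure D5:**
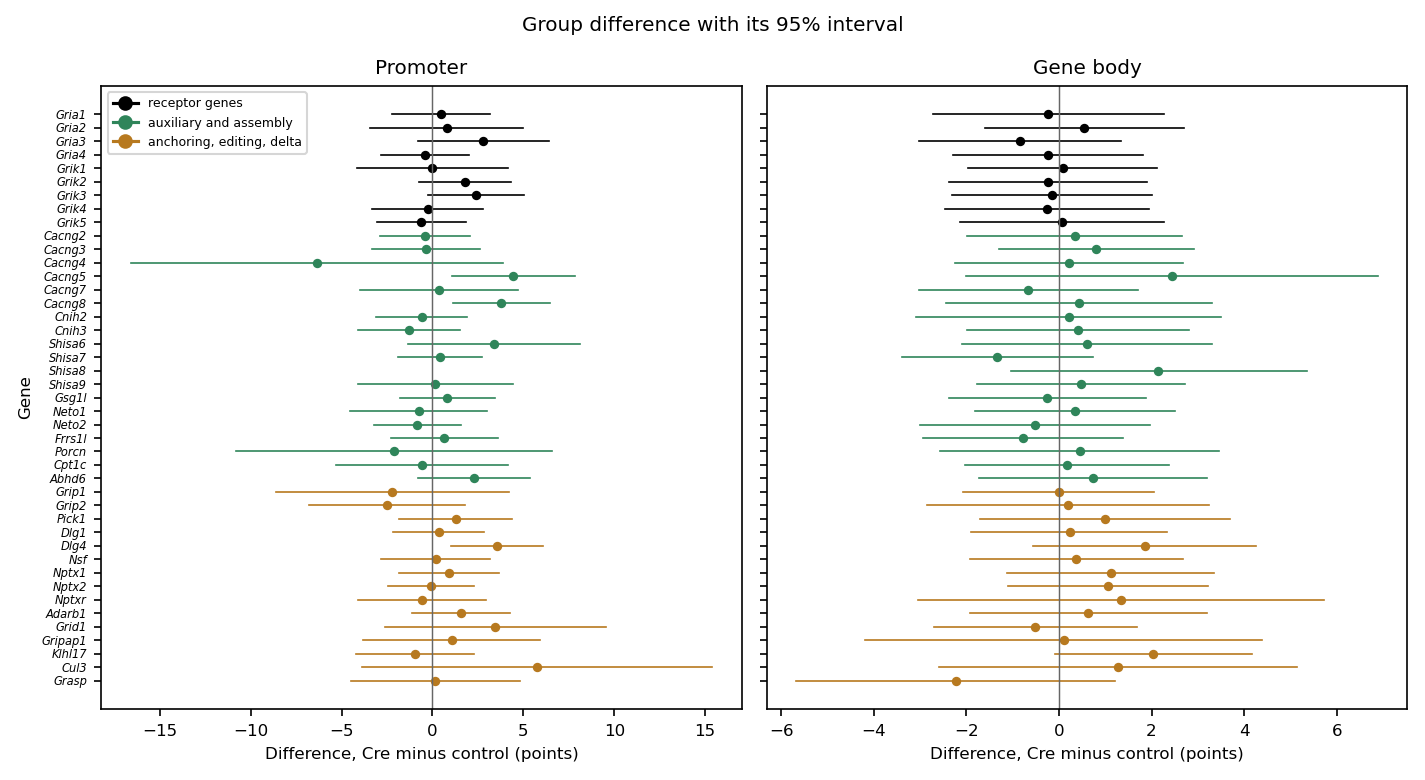
Difference between groups (Cre minus control, percentage points, point) with its 95% interval from limma on the percent scale (line) for promoters and gene bodies of the receptor genes (black), auxiliary and assembly proteins (green) and anchoring, editing and delta receptor genes (ochre). All 9 receptor gene intervals include 0 in both panels, and the intervals of Cacng5, Cacng8 and Dlg4 promoters do not. The tests used the logit scale, where the Cacng8 promoter had an unadjusted p of 0.0540 in limma.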

How the data were processed

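The 4 bisulfite libraries of CA1 tissue were grouped by their titles, 2 to a group. Each deposited value is a percent methylation, given by the authors for a region in a library. The submitters' processing notes name the build mm10 and the tools Bismark 0.19.0, Trim Galore 0.4.5, FastQC 0.11.5 and edgeR, without their roles. The rule by which regions were drawn, and any coverage minimum, was not given in the sources used. Depth is unknown, so thinly covered regions weigh as much as others.

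Of 849172 regions, 158 lacked a value in a library and were left out of the tests; none was a member. limma 3.58.1 (R 4.3.3) was run on the level as a share of 1, turned into log2 of (level + 0.01) over (1 - level + 0.01). Variances were moderated and p-values adjusted by Benjamini-Hochberg (threshold 0.05) over all regions, 21915 promoters and 49601 gene bodies. On simulated data of this size, many features were shifted at once. Most shifted promoters then passed the threshold with shifts far larger than any member promoter difference. Single regions did not, even with shifts larger than nearly all member differences. Many shifts at once ease the adjusted threshold, so a lone shift in the data would pass less often. In the data, the Camk2a promoter differed by 37.7 points, with an adjusted p of 0.231 in limma. A count of 0 regions, promoters or gene bodies therefore does not show equal levels. Intervals of differences in points came from limma on the percent scale. Gene extents and promoter sequences are RefSeq, GRCm38.p6, and strands came from the deposited table.

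Named were, per gene, the smallest p in each direction, the lowest region and those apart by 10 points or more, the last chosen after their values were seen, as were the low runs, their edges, the distance bins, the start of the promoter table and the regions beside a named one. Of each related list, the 2 smallest p per direction were named. Members and lists were chosen with earlier results of these data known. A few genes of the lists and regions are counted but not reported by name here, nor drawn in the plot of related genes.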

Additional observations from a re-analysis of the deposited data

How the results depend on the processing

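No receptor gene passed the threshold under any alternative run. The count of regions past it was 0 with each library left out, offset 0.05, the percent scale, a trended and robust prior or library centring, and 5 when only regions of at least 500 bp were tested (limma adjusted p 0.0274 to 0.0377). Those 5 lie in Il1rapl2, over Gm10598, and unnamed on chromosomes 3, 12 and Y; each was at 100% in both controls, none is a member, and fewer regions were tested. With a trended and robust prior, 1 promoter passed, Camk2a (limma adjusted p 0.00176); the cause was not tested. The replicate numbers were not read as pairs, since the differences between replicates of the 2 groups correlated by 0.00648 over regions. The fit with the replicate number as a block gave 0 regions, 0 promoters and 0 gene bodies past the threshold.

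Of the member differences under alternatives, 10 of 78 for promoters, 11 of 81 for gene bodies and 6 of 165 for regions changed sign. The count for regions does not measure stability, since most were picked for a small p or a large difference. Where both Cre libraries lay on the same side of both controls, leaving out a library cannot change the sign. The block fit returns the same difference by construction. In promoters, Gria1 was -1.15 points weighted by length, Grik1 0.00682 with library means aligned and Grik4 0.161 within 1000 bp. In bodies, Grik5 was -0.0154 weighted by length and -0.0421 over regions whole inside the gene, Grik1 -0.0576 and Grik3 0.0516 over the rows of the deposited name. With each library left out in turn, promoter differences that changed sign ranged from -0.0833 to 1.08 (Gria1), -1.09 to 2.67 (Gria2), -1.66 to 1.66 (Grik1) and -1.17 to 0.636 (Grik4). Bodies ranged from -0.935 to 0.468 (Gria1), -0.0120 to 0.169 (Grik1), -0.557 to 0.0992 (Grik2), -0.453 to 0.151 (Grik3), -0.655 to 0.148 (Grik4) and -0.350 to 0.479 (Grik5). The lowest regions ranged from -0.642 to 0.209 (Gria3), -1.32 to 1.17 (Grik1), -0.412 to 0.255 (Grik2) and -0.874 to 0.139 (Grik5). The causes were not tested. With 2 libraries a group and no coverage, a difference that missed the threshold is not shown to be absent.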
